A study of Sus scrofa with 13 samples.

Results

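PPARA and the genes of hepatic fatty acid oxidation were measured in the liver of pigs before and after warm ischemia and reperfusion, with and without an infusion of human bone marrow-derived mesenchymal stromal cells (BM-MSCs). The set was defined by name. It lists 38 genes, namely the receptor with its partner and its coactivator, the genes of fatty acid uptake and activation, of the carnitine shuttle, of mitochondrial and peroxisomal oxidation and of ketone bodies, and 4 target genes outside the oxidation steps. Of these, 37 had a row among the 35670 genes of the count table and all 37 passed the filter on low counts, as did 16481 genes in all. CD36, which encodes a fatty acid transporter of the cell surface, had no row under its symbol and was not analysed here. The 13 libraries fall into 4 groups. Baseline is represented by 2 libraries, called 1a and 2, from liver taken before the vessels were clamped. The 3 ischemic controls had 45 min of warm ischemia of the whole liver and 6 h of reperfusion without cells. The other groups had the same clamping and 6 h of reperfusion. Soon after blood flow was restored, they received human BM-MSCs at 3 M (mega) cells per kg. The cells went to 4 livers through the hepatic artery (arterial infusion) and to 4 through the portal vein (portal infusion). All animals were female Yorkshire pigs under anesthesia and open surgery, and their solid food had been replaced by glucose-enriched water before the experiment. Ischemia, hours of surgery and anesthesia, and time without food all separate the livers at 6 h from baseline and cannot be told apart. The labels do not say whether the baseline libraries come from animals that are also in another group.

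PPARA is a nuclear receptor that is activated by fatty acids and binds DNA together with RXRA. In hepatocytes it drives genes that take up fatty acids, join them to coenzyme A, carry them into mitochondria as carnitine esters and shorten them by beta oxidation, above all during fasting. Mitochondria oxidize short to long chains and hand the electrons to the respiratory chain through electron transfer flavoprotein, while peroxisomes shorten very long and branched chains and bile acid precursors. Part of the acetyl-CoA can be made into ketone bodies.

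The libraries held between 18975413 and 35949178 counts on genes, with a median of 30260803, and the biological coefficient of variation over all genes was 0.729. All 14 hepatocyte markers with a row were detected in every library. Their summed level, in CPM (counts scaled to a common library total), was 133400 and 189600 at baseline, between 69220 and 131100 in ischemic controls, between 87910 and 166800 after arterial infusion and between 55130 and 152500 after portal infusion. In bulk tissue, fewer cells of a type and less RNA per cell cannot be told apart. The library preparation did not keep the strand, so reads of an overlapping antisense gene would be counted with a member. Before any comparison, 4 libraries stood apart, namely control 2, arterial 1, portal 1 and portal 4. On the first principal component of the 500 most variable genes, 3 of which were members, they lay between 26.2 and 105.5, whereas the other 7 livers at 6 h lay between -32.1 and -14.1 and baseline at -40.6 and -36.1. They were found after seeing the data, and values without them are given beside results that they moved.

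In ischemic controls against baseline, the receptor PPARA, the carnitine transferase CPT1A and the fatty acid ligase ACSL1 had lower means, and the receptor partner RXRA had a higher one, but no member passed the adjusted threshold. In the quasi-likelihood test of edgeR, with p-values adjusted after Benjamini-Hochberg over 16481 genes, 0 of 37 members had an adjusted p under 0.05, and the share of all genes called was 0%. The smallest adjusted p of a member was 0.978. DESeq2 over all libraries also called 0 members, with 0.0204% of all genes, as did DESeq2 over the 5 libraries compared, where 1.02% of all genes were called and PPARA came nearest to the threshold with an adjusted p of 0.0586. At an unadjusted p under 0.05, 3 members were lower (PPARA, CPT1A and ACSL1), where 1.21% of all genes were, and 1 was higher (RXRA), where 3.16% were. The lower members numbered 8 in edgeR over the 5 libraries compared (3.66% of all genes) and 8 in DESeq2 over the same libraries (2.45%), and the higher ones 0 with RLE or upper quartile normalization. The direction of the values was uneven. The log2 fold change was below 0 in 26 of 37 members (70.3%), against 49.6% of all genes, and -1 or lower in 8 (21.6%), against 11.3%. It was 1 or higher in 2 members, against 17.1% of all genes. The ranges of the groups did not overlap in 18 members. Controls lay below baseline in 13 of them (35.1%), against 16.3% of all genes, and above in 5 (13.5%), against 14.8%. The median log2 fold change of the members was -0.42, with 0.00 for all genes tested. This median rested in part on single libraries. It was -0.63 without control 1, -0.19 without control 2 and -0.20 without the 4 libraries that stood apart. Without baseline 2, the members at -1 or lower numbered 3 instead of 8, and without the 4 libraries 6. Lower members at an unadjusted p under 0.05 numbered 1 without control 2 or control 3, 5 without arterial 1, portal 1 or portal 4, and 7 without the 4 libraries. The calls over all genes in these fits were not set beside them. The counts therefore show only that the calls depended on the libraries used.

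All 11 livers at 6 h were also set against baseline, with each of the 3 groups given equal weight, since every one of them had the same ischemia and reperfusion. This comparison shares its baseline libraries and its controls with the one above and is no separate evidence. Again 0 of 37 members passed the adjusted threshold in edgeR, with 0% of all genes called, and DESeq2 called 0 members and 0.0571% of all genes. The smallest adjusted p of a member was 0.860 in edgeR. At an unadjusted p under 0.05, 4 members were lower (PPARA, CPT1A, ACOX2 and BDH1), against 1.93% of all genes, and 1 was higher (RXRA), against 2.85%. In voom there were 6 lower and 4 higher, against 9.93% and 8.01% of all genes. Fold changes were below 0 in 25 members (67.6%), against 50.5% of all genes, and -1 or lower on the log2 scale in 7 (18.9%), against 9.57%. Every liver at 6 h lay below both baseline libraries for PPARA, ACOX2, BDH1 and ACAT1, against 3.97% of all genes, and above them for ACADVL, against 3.3%. The median log2 fold change of the members was -0.37. It was -0.23 without baseline 2, -0.25 without control 2 and -0.11 without the 4 libraries. Without baseline 2, 2 members were at -1 or lower.

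**Figure D1:**
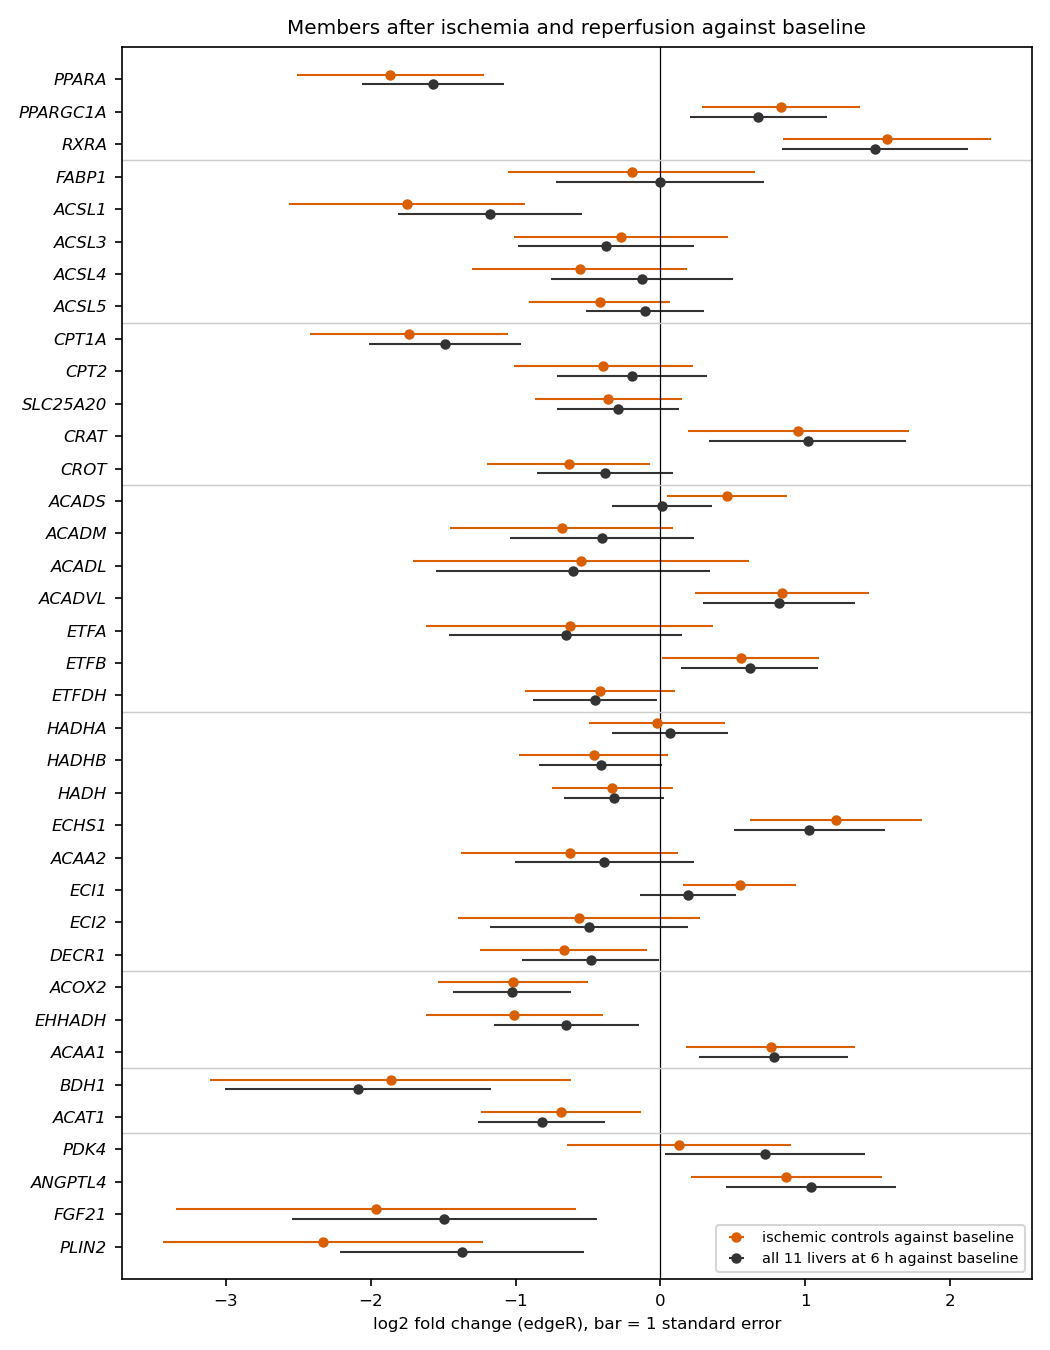
Log2 fold change (horizontal axis, bar of 1 standard error) of the 37 members in ischemic controls against baseline and in all 11 livers at 6 h against baseline, with grey lines between the roles. PPARA at -1.87 and PLIN2 at -2.33 lie far to the left and RXRA at 1.56 far to the right, while HADHA lies at -0.02.

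The receptor itself (PPARA, chromosome 5, 3302755 to 3321091 of Sscrofa11.1) was measured at 1116 and 691 normalized counts at baseline. It stood at 311, 222 and 210 in ischemic controls 1 to 3, at 120, 396, 630 and 153 after arterial infusion and at 206, 451, 414 and 359 after portal infusion. Every liver at 6 h was below the lower baseline library, and arterial 3 came nearest to it. PPARA thus had a log2 fold change of -1.87 (SE 0.65, 95% interval -3.25 to -0.49) in controls, a fitted level 0.274 times that of baseline, and -1.57 (SE 0.49) over all livers at 6 h. With 2 against 11 libraries the exact two-sided permutation test gave p = 0.0128, the smallest it can give in this design, and with 2 against 3 it cannot go below 0.1, which is the value it gave. Without the 4 libraries that stood apart the log2 fold change in controls was -1.78.

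RXRA, the DNA-binding partner of PPARA and of several other nuclear receptors (chromosome 1, 273698842 to 273797622), went the other way. It had 1974 and 1170 normalized counts at baseline and 3770, 5658 and 4682 in ischemic controls, so that every control exceeded both baseline libraries. After arterial infusion the values were 7248, 1526, 2463 and 3794 and after portal infusion 8526, 2136, 2174 and 8221. The highest of these, at 7248 or more, belonged to arterial 1, portal 1 and portal 4, and arterial 2 lay within the range of baseline. For RXRA the log2 fold change was 1.56 (SE 0.72) in controls and 1.48 (SE 0.65) over all livers at 6 h, and 0.88 in the latter without the 4 libraries. The exact permutation test over all livers at 6 h gave p = 0.0641.

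PPARGC1A, the coactivator that raises mitochondrial gene expression in fasting (chromosome 8, 17841844 to 18527953), overlapped between groups. It had 719 and 463 normalized counts at baseline and 949, 1727 and 539 in controls, with 1316, 443, 1021 and 753 after arterial and 764, 1210, 749 and 1051 after portal infusion. Its log2 fold change was 0.83 (SE 0.55) in controls and 0.35 without the libraries that stood apart, and 0.68 (SE 0.47) over all livers at 6 h.

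**Figure D2:**
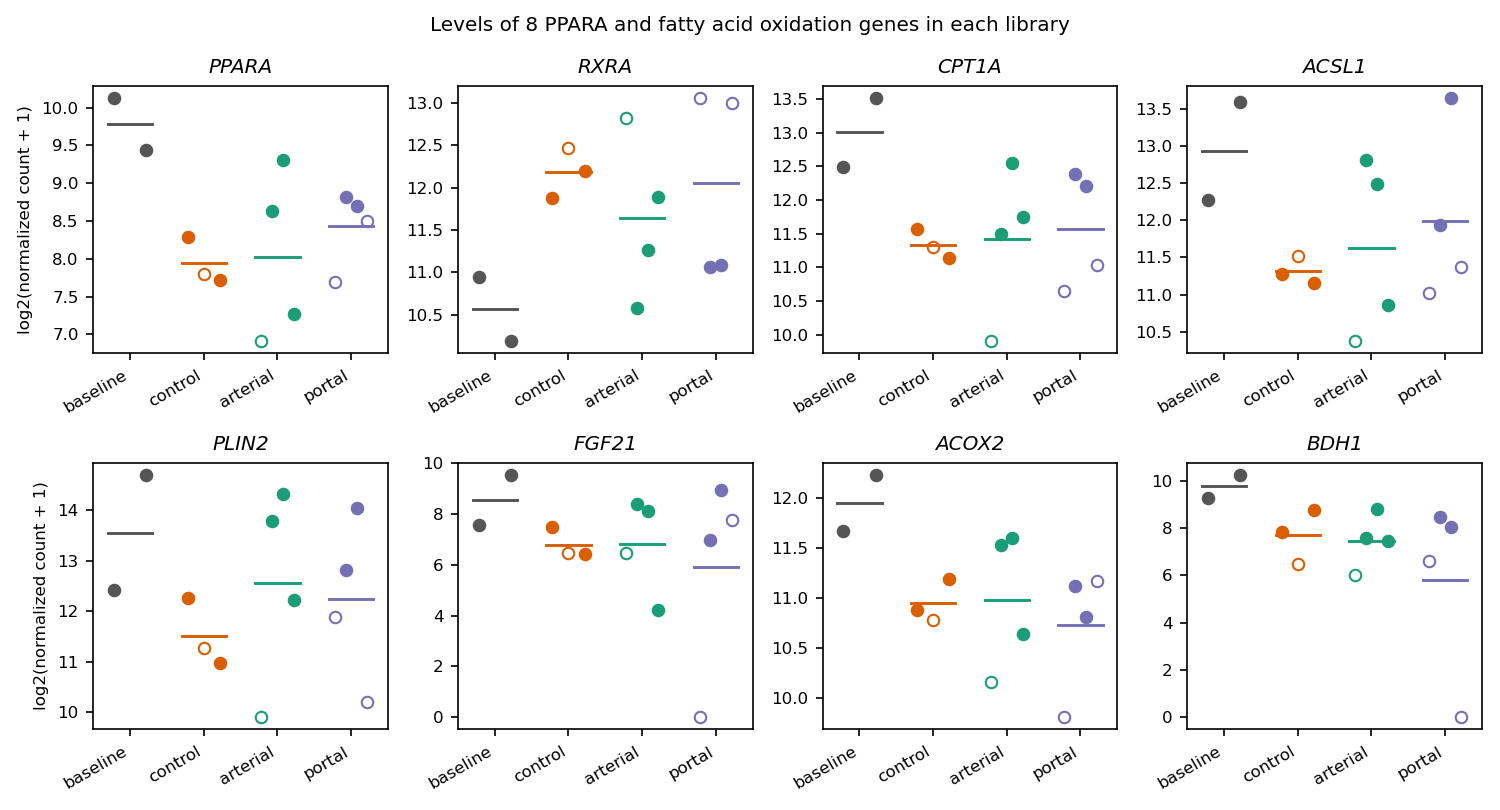
Log2(normalized count + 1) of 8 members in each of the 13 libraries by group, with a line at the mean of each group and open symbols for control 2, arterial 1, portal 1 and portal 4. For PPARA, ACOX2 and BDH1 all 11 points at 6 h lie below both baseline points, while the 2 baseline points of PLIN2, 5454 and 26672 normalized counts, lie far from each other.

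Genes that bring fatty acids into the cell and activate them had lower means in controls in all 5 cases, with log2 fold changes from -0.20 to -1.75 and 1 at an unadjusted p under 0.05. ACSL1, a long-chain acyl-CoA ligase (chromosome 15, 45866858 to 45936327), had 4956 and 12349 normalized counts at baseline and 2487, 2935 and 2279 in controls. It had 1332, 7154, 5757 and 1855 after arterial and 2070, 3930, 12767 and 2652 after portal infusion. All controls were below both baseline libraries, and arterial 2, arterial 3 and portal 3 were within or above the baseline range. ACSL1 was at a log2 fold change of -1.75 (SE 0.81) in controls and -0.999 without baseline 2, and -1.18 (SE 0.63) over all livers at 6 h. FABP1, the liver fatty acid binding protein (chromosome 3, 57850511 to 57854966), gave no direction. Its normalized counts were 4543 and 882 at baseline, 1571, 3775 and 1947 in controls, 7163, 1710, 1514 and 2367 after arterial and 1017, 6059, 1544 and 2421 after portal infusion. Its log2 fold change in controls was -0.20 (SE 0.85) and turned to 1.45 without baseline 1a and to 0.01 without control 1, and over all livers at 6 h it was 0.00 and changed sign when any of 9 libraries was left out. The other ligases ACSL3, ACSL4 and ACSL5 had log2 fold changes of -0.27, -0.56 and -0.42 in controls, of which ACSL4 did not overlap with baseline.

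The carnitine shuttle carries the activated chains across the inner mitochondrial membrane, and CPT1A, its rate-controlling outer transferase (chromosome 2, 4250642 to 4293914), had the lowest fold change of its 5 genes. CPT1A had 5781 and 11709 normalized counts at baseline and 3047, 2516 and 2250 in controls. After arterial infusion it had 961, 2887, 6006 and 3424 and after portal infusion 1605, 5370, 4714 and 2106. Of the 11 livers at 6 h, only arterial 3 exceeded the lower baseline library. CPT1A was at a log2 fold change of -1.74 (SE 0.68) in controls and -1.49 (SE 0.52) over all livers at 6 h, with p = 0.0385 in the exact permutation test. It was -1.19 in controls and -0.94 over all livers at 6 h without baseline 2. CPT2, the inner transferase, did not overlap with baseline in controls but had a log2 fold change of only -0.40 (SE 0.62). SLC25A20, the carrier between them, stood at -0.36 and CROT, the peroxisomal octanoyltransferase, at -0.63. CRAT, which acts on acetyl groups, was the only one of the 5 with a higher mean in controls, at 0.95 (SE 0.76) or 0.50 without the 4 libraries that stood apart, and without overlap. Its level was 1574 and 1755 normalized counts at baseline and 1801, 5167 and 2878 in controls.

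The acyl-CoA dehydrogenases and their electron acceptors were split, with 4 lower and 3 higher means in controls and 0 of 7 at an unadjusted p under 0.05 in edgeR. ACADM, the medium-chain enzyme (chromosome 6, 137541481 to 137575544), had 9630 and 8878 normalized counts at baseline, 9257, 2345 and 5433 in controls, 3629, 9829, 10258 and 8759 after arterial and 1585, 11137, 12180 and 4496 after portal infusion. The 4 libraries that stood apart held the lowest values, and of the other 7 livers at 6 h only control 3 and arterial 4 were below both baseline libraries. This gave a log2 fold change of -0.68 (SE 0.77) in controls and -0.40 (SE 0.64) over all livers at 6 h, and -0.31 and 0.04 without the 4 libraries. ACADVL, the very long-chain enzyme, went higher in value. It had 1867 and 1500 normalized counts at baseline and 2259, 4717 and 2224 in controls, and its lowest value after infusion was 1909, so all livers at 6 h exceeded both baseline libraries. Its log2 fold change was 0.84 (SE 0.60) in controls and 0.82 (SE 0.53) over all livers at 6 h, and 0.43 and 0.38 without the 4 libraries. Of the electron acceptors, ETFA stood at -0.63 and ETFB at 0.55 in controls although the proteins form a heterodimer, with SEs of 0.99 and 0.54, and without the 4 libraries they stood at -0.11 and 0.28. ETFDH, which passes the electrons on, was at -0.42.

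Of the 8 genes for the enzymes that follow in the mitochondrial cycle, 6 had lower and 2 higher means in controls, and 0 were at an unadjusted p under 0.05. HADHA and HADHB, which encode the subunits of the trifunctional protein and lie next to each other on chromosome 3 (112753343 to 112797627 and 112712894 to 112753121), had log2 fold changes of -0.02 (SE 0.47) and -0.46 (SE 0.51) in controls. HADHA had 2672 and 3521 normalized counts at baseline, 2293, 4612 and 2349 in controls, 4422, 2589, 3051 and 2004 after arterial and 6331, 2715, 2954 and 3649 after portal infusion. Every value above the higher baseline library came from control 2, arterial 1, portal 1 or portal 4. HADHA had a log2 fold change of 0.07 (SE 0.40) over all livers at 6 h and -0.25 without those 4. In controls it changed sign without baseline 2, control 1 or control 3, and over all livers at 6 h without baseline 1a, control 2, arterial 1 or portal 1. ECHS1, the short-chain enoyl-CoA hydratase (chromosome 14, 141340320 to 141348870), had 9515 and 13535 normalized counts at baseline and 14788, 47586 and 19402 in controls, with 40775, 23971, 18373 and 16524 after arterial and 30295, 12081, 15109 and 24930 after portal infusion. Its controls did not overlap with baseline, and the log2 fold change was 1.21 (SE 0.59) and 0.59 without the libraries that stood apart. ECI1, an isomerase for unsaturated chains, was at 0.55 (SE 0.39). The remaining 4 genes (HADH, ACAA2, ECI2 and DECR1) had log2 fold changes between -0.67 and -0.33, and DECR1 alone of these did not overlap.

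Peroxisomal oxidation was covered by 3 genes. ACOX2, the oxidase for branched chains and bile acid precursors (chromosome 13, 40220952 to 40255967), had 3270 and 4824 normalized counts at baseline and 1883, 1758 and 2341 in controls. It had 1144, 2955, 3105 and 1594 after arterial and 897, 2226, 1795 and 2311 after portal infusion, and no liver at 6 h reached the lower baseline library. ACOX2 had a log2 fold change of -1.02 (SE 0.52) in controls and -1.03 (SE 0.41) over all livers at 6 h, and the exact permutation test over the latter gave p = 0.0256. Without the 4 libraries these values were -0.92 and -0.85. EHHADH, the bifunctional enzyme and a textbook PPARA target (chromosome 13, 123104085 to 123162119), had 5411 and 6558 normalized counts at baseline, 3679, 2534 and 2667 in controls, 5983, 4796, 4282 and 3970 after arterial and 756, 4814, 5832 and 4513 after portal infusion. Controls lay below baseline without overlap, with a log2 fold change of -1.01 (SE 0.61), whereas arterial 1 and portal 3 were within the baseline range. Over all livers at 6 h the value was -0.65 (SE 0.50). ACAA1, the peroxisomal thiolase, stood at 0.76 (SE 0.58) in controls with overlap, and at 0.22 without the 4 libraries.

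Both ketone body genes had lower means. BDH1, which interconverts the main ketone bodies (chromosome 13, 132602372 to 132647271), had 623 and 1228 normalized counts at baseline and 226, 89.3 and 436 in controls. It had 64.2, 189, 449 and 176 after arterial and 96.9, 357, 265 and 0 after portal infusion. The highest liver at 6 h was thus below the lower baseline library, and the count of 0 in portal 4 allows up to 3 reads. BDH1 had a log2 fold change of -1.86 (SE 1.25) in controls and -2.09 (SE 0.92) over all livers at 6 h, with p = 0.154 in the exact permutation test, and -1.58 without the 4 libraries. ACAT1, the mitochondrial acetoacetyl-CoA thiolase (chromosome 9, 36525266 to 36545634), had 2272 and 2905 normalized counts at baseline, 1740, 1508 and 1569 in controls, 1458, 1523, 1722 and 1128 after arterial and 398, 2262, 1583 and 1174 after portal infusion. Portal 2 lay just under the lower baseline library and the others further below. ACAT1 was at a log2 fold change of -0.69 (SE 0.55) in controls and -0.82 (SE 0.44) over all livers at 6 h.

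The 4 target genes outside the oxidation steps differed from each other and had wide errors. PLIN2, the coat protein of lipid droplets (chromosome 1, 203683867 to 203709277), had the lowest fold change of the members in controls against baseline when both baseline libraries were used. Its normalized counts were 5454 and 26672 at baseline, 4906, 2483 and 2015 in controls, 956, 14175, 20385 and 4790 after arterial and 3798, 7185, 16763 and 1184 after portal infusion. Controls were below both baseline libraries, while 4 infused livers exceeded baseline 1a. The log2 fold change in controls was -2.33 (SE 1.10) and -0.83 without baseline 2, and that over all livers at 6 h went from -1.37 (SE 0.84) to 0.13 without the same library. FGF21, a hormone that the liver secretes in fasting (chromosome 6, 54082653 to 54084532), had 186 and 743 normalized counts at baseline and 179, 85.8 and 85.3 in controls. It had 86.5, 333, 274 and 17.8 after arterial and 0, 125, 491 and 217 after portal infusion, the 0 of portal 1 allowing up to 3 reads. Its log2 fold change in controls was -1.96 (SE 1.38) and -0.70 without baseline 2.

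PDK4, the kinase that shuts off pyruvate dehydrogenase when fat is burned (chromosome 9, 75246956 to 75260134), overlapped between all groups. It had 577 and 1648 normalized counts at baseline, 421, 1193 and 2045 in controls, 3026, 2768, 1167 and 3544 after arterial and 4913, 698, 1059 and 1565 after portal infusion. Its log2 fold change was 0.13 (SE 0.78) in controls and turned to -0.44 without baseline 1a and to -0.44 without control 3, and it was 0.72 (SE 0.69) over all livers at 6 h and 0.34 there without the 4 libraries. ANGPTL4, an inhibitor of lipoprotein lipase (chromosome 2, 70905767 to 70912892), had 650 and 2838 normalized counts at baseline, 2593, 4702 and 2302 in controls, 2649, 6438, 2901 and 3296 after arterial and 7267, 2729, 3751 and 1945 after portal infusion. All livers at 6 h exceeded baseline 1a, and baseline 2 lay among them. ANGPTL4 thus had a log2 fold change of 0.87 (SE 0.66) in controls, 0.52 without the 4 libraries, and 1.04 (SE 0.59) over all livers at 6 h.

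Cell type markers moved with the comparison of controls with baseline. Of 10 macrophage markers, 9 were detected in every library and MSR1 was at 0 in portal 1. Their summed level was 1358 and 2289 CPM at baseline and between 2378 and 4248 CPM in controls. The markers behind this sum were not alike. CD14 had 19436 and 17195 normalized counts at baseline and 25943, 77782 and 20921 in controls. C1QA was likewise higher in every control than in either baseline library. CD163 had 9441 and 5276 at baseline and 9303, 4534 and 6900 in controls. VSIG4 and MSR1 also overlapped with baseline. The 9 neutrophil markers with a row summed to 51.3 and 55.4 CPM at baseline and to between 63.9 and 381 CPM in controls, with MPO at 0 in 9 libraries and ELANE at 0 in portal 1 and portal 4. Hepatocyte markers summed to less in each control than in either baseline library, and of the 14, 2 did not overlap in the lower and 2 in the higher direction (14.3% each, against 16.3% and 14.8% of all genes). The part of these shifts in the members' values was not tested. Adipocyte and muscle markers, which would accompany fat or muscle in the biopsy, stayed between 0 and 7.89 CPM in sum.

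Wider lists of the same pathways, without the members, had median log2 fold changes near that of all genes or above it in controls, while some of their counts were on the lower side. The medians were 0.07 for 20 other PPAR receptors and coregulators, 0.00 for 23 other genes of fatty acid uptake, activation and carnitine, -0.07 for 21 other mitochondrial and -0.03 for 26 other peroxisomal oxidation genes, 0.17 for 8 other ketone body genes and 0.34 for 36 other PPARA target genes. Of the uptake, activation and carnitine genes, 7 were at -1 or lower (30.4%, against 11.3% of all genes), and controls lay below baseline without overlap in 6 (26.1%, against 16.3%) and above it in 1. Of the peroxisomal genes, 6 lay below without overlap (23.1%) and 2 above (7.69%, against 14.8%). Fold changes were below 0 in 57.1% of the mitochondrial and 53.8% of the peroxisomal genes, against 49.6% of all genes. The adjusted threshold was passed by 0 genes of these lists in edgeR and by 0 in DESeq2, over all libraries and over the 5 compared. At an unadjusted p under 0.05 there were 5 higher (PPARD, NUDT7, LPIN2, CIDEB and APOC3), against 3.16% of all genes, and 1 lower (ACSS1), against 1.21%. Over these lists together, the counts stood near those shares. PPARD, the sister receptor of PPARA, had 430 and 484 normalized counts at baseline and 665, 3292 and 1044 in controls, a log2 fold change of 1.83 (SE 0.76) and 0.91 without the libraries that stood apart. ACSS1, the mitochondrial acetyl-CoA synthetase, had 1121 and 3364 at baseline and 985, 324 and 950 in controls, a log2 fold change of -1.54 (SE 0.68). Catalase (CAT), the main peroxide-removing enzyme of peroxisomes, was at -1.37 (SE 0.74). APOC3, an apolipoprotein that PPARA is known to repress, was at 2.55 (SE 1.18) and at 1.10 without the 4 libraries that stood apart, with its highest values, 634030 normalized counts or more, in the 4 libraries that stood apart. Fatty acid synthesis genes, 15 in number, had a median of 0.33 and 0 at an unadjusted p under 0.05.

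Among livers at 6 h, the widest differences between members were those between libraries. Portal 1 had the lowest value of all 13 libraries for 16 of 37 members, and its median deviation from the gene means was -0.87 for the members and -0.38 for all genes tested. Of the genes named above, RXRA, CRAT, ACADVL, HADHA, ECHS1 and ACAA1, together with ETFB, were higher in each of control 2, arterial 1, portal 1 and portal 4 than in any of the other 7 livers at 6 h. In ACSL3, SLC25A20, ACADM, ACADL, ETFA, ECI2 and BDH1 each of the 4 was lower than any of the 7. These are 18.9% of the members in each direction, against 9.17% and 10.6% of all genes. The 4 libraries were chosen by their expression, so these counts are a description without a test. They also had fewer genes with counts, 13581 to 16993 against 15831 to 20282. Their total counts were lower as well, 18975413 to 30260803 against 24339939 to 35949178, with medians of 21004382 and 32966093. Genes at 1 CPM or more were not fewer, at 12010 to 12435 against 11947 to 12666. The hepatocyte marker sum of the 4 libraries was lower, 55130 to 87910 against 125600 to 166800 CPM. The single markers were not alike. APOB, TF, FGB, FGG and AHSG were lower in each of the 4 than in any of the 7. APOA1 was higher in each of the 4, at 173161 normalized counts or more against 139116 or less. HPX was higher too, at 206716 or more against 183385 or less, and the other hepatocyte markers overlapped. Summed erythroid markers of the 4 libraries were 176 to 873 CPM against 34.1 to 536 CPM, with SLC4A1 and CA1 at 0 in 8 libraries each and HBM at 0 in portal 1. The part of these measures in the members' values was not tested. ACADL and FGF21 had 0 reads in portal 1, which allows up to 3.

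**Figure D3:**
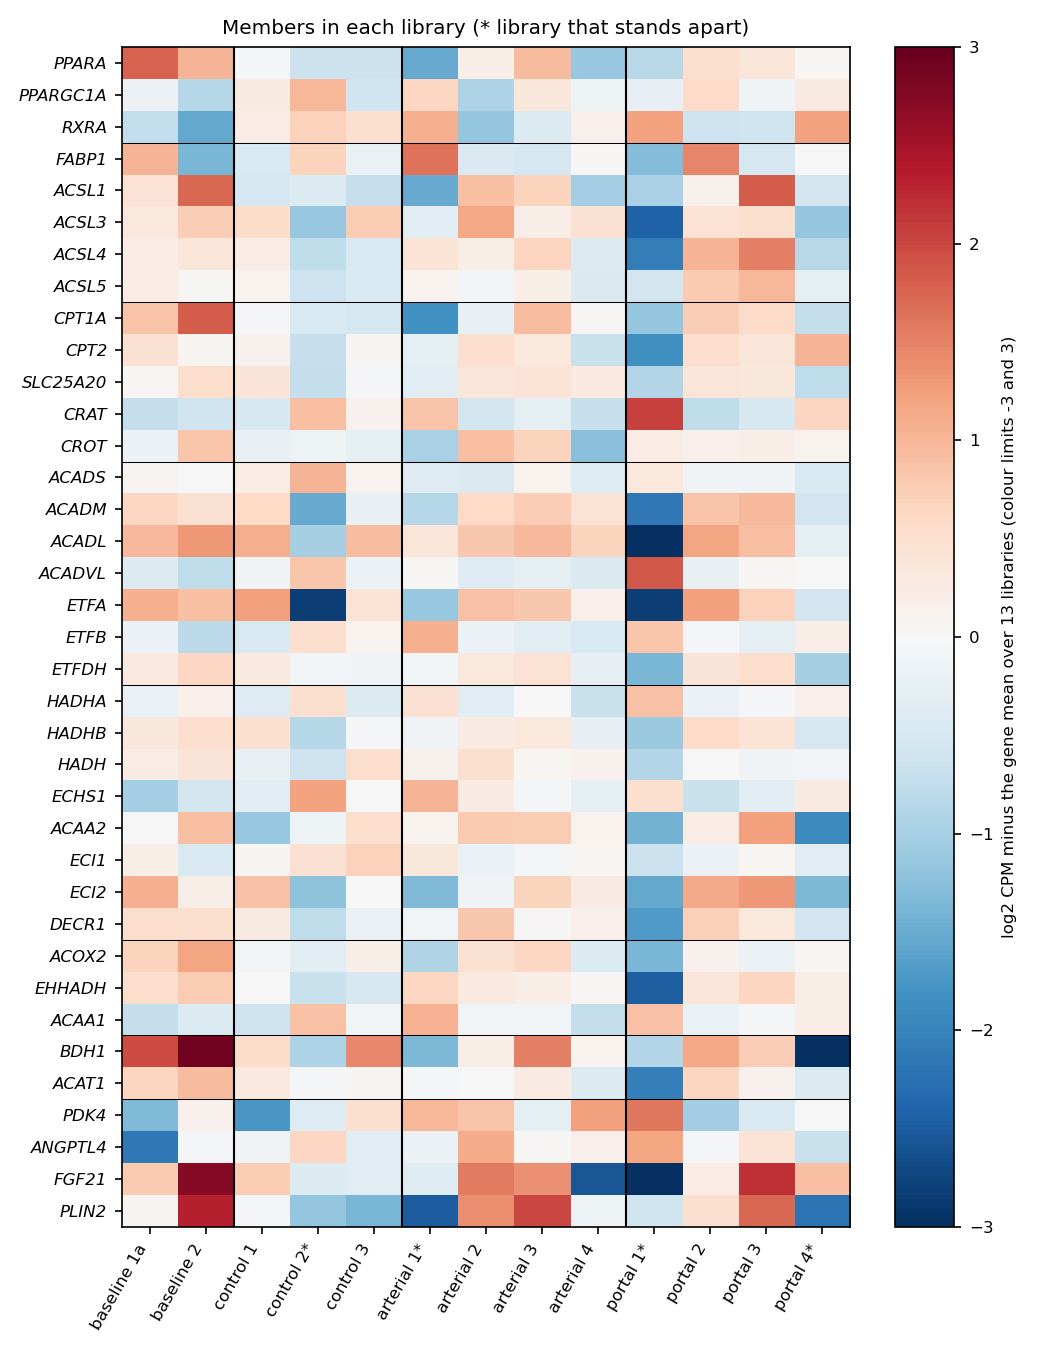
Log2 CPM of each member (rows, grouped by role) in each library (columns, grouped by treatment) minus the mean of the gene over the 13 libraries, with colours limited to -3 and 3 and an asterisk on the 4 libraries that stood apart. The deepest negative values lie in portal 1 (ACADL, -7.89) and portal 4 (BDH1, -7.41), and the highest positive value in baseline 2 (BDH1, 2.90). The median over members was -0.87 in portal 1.

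**Figure D4:**
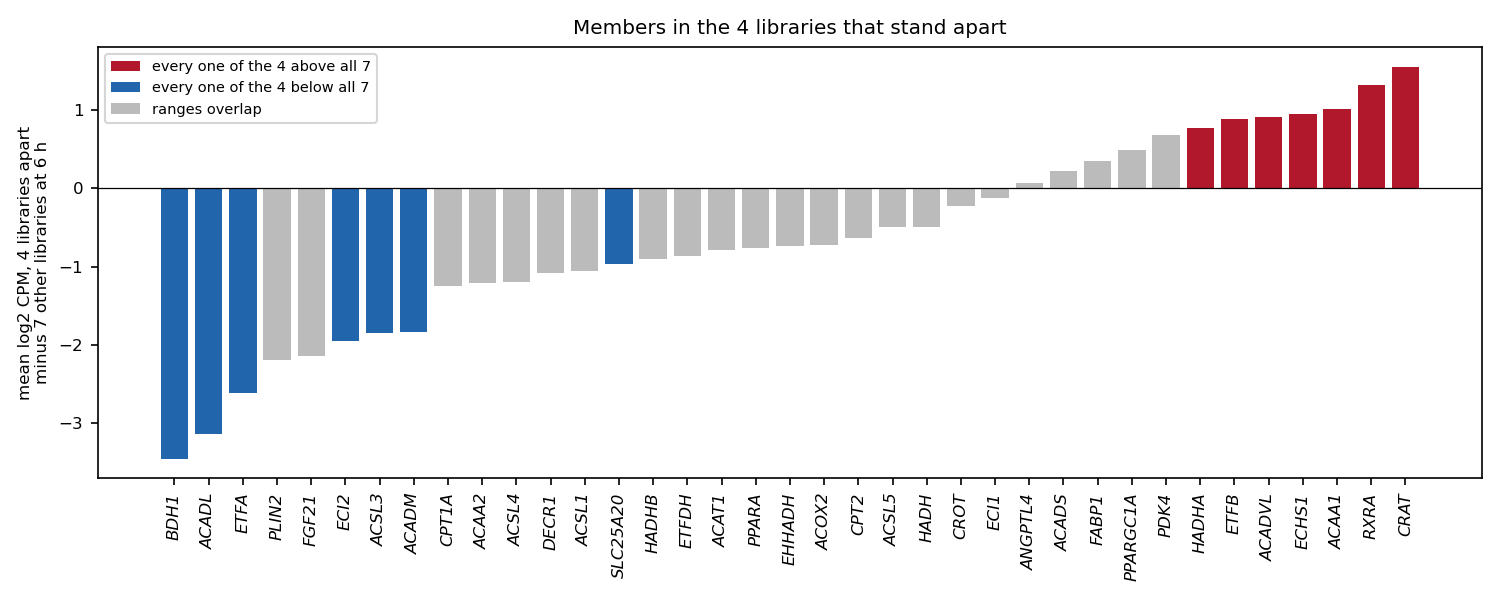
Mean log2 CPM of each member in the 4 libraries that stood apart minus the mean in the other 7 livers at 6 h, in order of size. Red bars mark the 7 members in which every one of the 4 exceeded all 7, blue bars the 7 members in which every one was below, and grey bars those with overlap.

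Infusion of BM-MSCs was then compared with the ischemic controls. PPARA, CPT1A, ACSL1, EHHADH and PLIN2, all lower in controls than at baseline in their means, had higher means in infused livers. BDH1 and ACAT1, also lower in controls, had lower means still in infused livers. These were 200 normalized counts against 250 in controls for BDH1 and 1406 against 1605 for ACAT1. ACOX2, lower in controls too, had 2003 in infused livers against 1994. The adjusted threshold was passed by 0 of 37 members in edgeR (0% of all genes called) and by 0 in DESeq2 over 13 (0.00408%) or over 11 libraries (0%). The smallest adjusted p of a member was 1.00 in edgeR. At an unadjusted p under 0.05, 1 member was lower (ACADS), against 1.41% of all genes, and 0 were higher, against 0.734%. In voom there were 2 lower and 5 higher, against 7.86% and 3.48%. ACADS missed that level when any of 8 libraries was left out, both baseline libraries, control 2, arterial 2, arterial 4, portal 2, portal 3 or portal 4. Of the log2 fold changes, 24 were above 0 and 13 (35.1%) below, against 52.1% of all genes below, with a median of 0.10 and of -0.02 for all genes. No member was free of overlap between the 8 infused and the 3 control livers, against 0.225% of all genes above and 0.34% below. This comparison and that with baseline share the controls, so the opposite signs are no separate evidence. Macrophage markers moved with this comparison. Their sums were 2378 to 4248 CPM in controls, 1323 to 1952 after arterial and 1560 to 1980 after portal infusion, without overlap, and without the 4 libraries that stood apart they were 2378 and 2968 in controls and 1323 to 1888 in infused livers. Of the 10 markers, 9 had a log2 fold change below 0 (90%, against 52.1% of all genes). At an unadjusted p under 0.05, 5 were lower (50%, against 1.41% of all genes). Their part in the members' values was not tested.

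For PPARA the mean was 341 ± 172 normalized counts (SD, n = 8) in infused livers and 248 ± 54.9 (n = 3) in controls, a log2 fold change of 0.45 (SE 0.50, 95% interval -0.62 to 1.51). Of the 8 infused livers, 5 were above the highest and 3 below the lowest control. PLIN2 had the highest fold change of the members over all libraries, 1.44 (SE 0.89, interval -0.47 to 3.35), with 4 infused livers above the highest control and 2 below the lowest. PDK4 was at 0.89 (SE 0.60), ACSL1 at 0.86 (SE 0.64), FGF21 at 0.71 (SE 1.08) and EHHADH at 0.54 (SE 0.47), and EHHADH exceeded the highest control in 7 of 8 infused livers, the exception being portal 1. The values of CPT1A (0.38, SE 0.52), ACADM (0.42, SE 0.59), ANGPTL4 (0.25, SE 0.48) and FABP1 (0.29, SE 0.64) were all within about 1 SE of 0. Other members had values near 0 whose sign turned with single libraries. RXRA, at -0.12 (SE 0.50), turned without control 2, arterial 2, portal 2 or portal 3. For PPARGC1A, at -0.23 (SE 0.39), control 2 decided the sign. ACOX2, at -0.02 (SE 0.39), turned without control 3, arterial 1, arterial 4 or portal 1, and HADHA, at 0.14 (SE 0.35), without control 1, control 3 or portal 1. FABP1 turned without arterial 1 or portal 2. Without the 4 libraries that stood apart, 0 members passed the adjusted threshold, and 1 of the 15544 genes tested did. PLIN2 then stood at 1.86, ACSL1 at 1.43, PDK4 at 0.27 and RXRA at -0.84. PPARA moved to 0.67, CPT1A to 0.78, ACADM to 0.53, ANGPTL4 to 0.59 and FABP1 to 0.60.

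ACADS and ECI1 had lower means after infusion. ACADS, the short-chain dehydrogenase (chromosome 14, 40642810 to 40656922), had 3032 and 2981 normalized counts at baseline and 3263, 6239 and 3102 in controls. It had 2298, 2201, 3043 and 2258 after arterial and 4024, 2620, 2613 and 2233 after portal infusion, so that 7 of 8 infused livers were below the lowest control and portal 1 was not. The log2 fold change was -0.67 (SE 0.29), with p = 0.0364 in the exact permutation test, which is not adjusted for the 37 members tested in this way. It was -0.32 without control 2 and -0.31 without the 4 libraries. ECI1 (chromosome 3, 39750742 to 39758516) had 1802 and 1205 normalized counts at baseline and 1658, 2355 and 2644 in controls, with 2127, 1458, 1560 and 1728 after arterial and 1144, 1403, 1651 and 1370 after portal infusion. In 6 of 8 infused livers it was below the lowest control, with a log2 fold change of -0.53 (SE 0.28) and p = 0.0242 in the exact permutation test, again unadjusted. ACSL5, another long-chain ligase, had 3634, 2396 and 2555 normalized counts in controls and a log2 fold change of 0.47 (SE 0.37), with 4 of 8 infused livers above the highest control.

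By route, the arterial and the portal group were each set against the same 3 controls, and their values stand side by side without a test of their likeness. Again 0 of 37 members passed the adjusted threshold in edgeR or DESeq2 for either route. The share of all genes called was 0% in edgeR for both, 0% in DESeq2 for arterial infusion, and 0.0163% over 13 and 0.0131% over 7 libraries in DESeq2 for portal infusion. At an unadjusted p under 0.05 there was 1 lower member after arterial infusion (ACADS), against 0.94% of all genes, and 1 after portal infusion (ECI1), against 1.66%, and 0 higher members for either, against 0.625% and 1.13%. For portal infusion voom gave 2 lower and 7 higher, against 9.08% and 4.95%. The log2 fold change of PPARA was 0.39 (SE 0.55) after arterial and 0.51 (SE 0.55) after portal infusion, that of PLIN2 1.68 (SE 0.97) and 1.20 (SE 0.96), and that of PDK4 1.10 (SE 0.67) and 0.68 (SE 0.66). ACADS was at -0.77 (SE 0.34) and -0.58 (SE 0.34). For ECI1 the values were -0.38 (SE 0.32) and -0.69 (SE 0.32), and for ACSL1 they were 0.65 (SE 0.70) and 1.07 (SE 0.71), the latter being 0.13 without portal 3. Without the 4 libraries PDK4 was at -0.47 after portal infusion, so that its sign turned, ACADS was at -0.35 and -0.27 and ACSL1 at 1.05 and 1.81. After arterial infusion, all 4 livers were above the controls for EHHADH, against 1.61% of all genes, and below them for ACADS, against 1.57%. After portal infusion, all 4 were above the controls for CROT, against 1.39% of all genes, and below them for ECI1, against 2.33%. The median over members was 0.16 and 0.15. The portal one was -0.02 without portal 3, and 19 members were then lower instead of 13. Without portal 1, the log2 fold change after portal infusion was -0.58 for ECI1 and 1.36 for ACSL1.

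**Figure D5:**
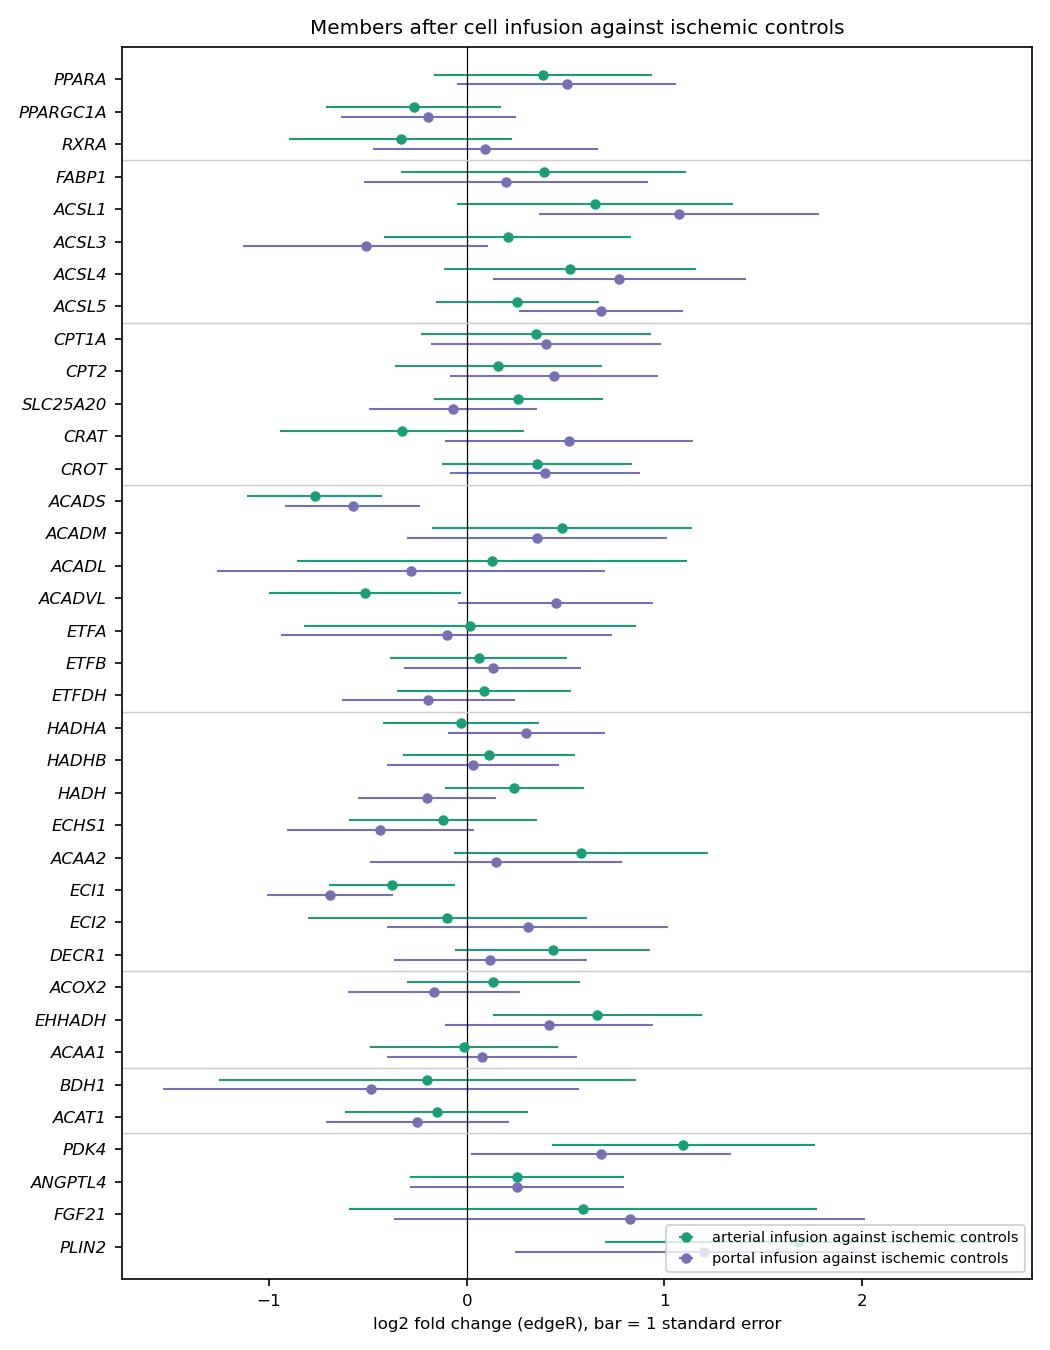
Log2 fold change (horizontal axis, bar of 1 standard error) of the 37 members after arterial and after portal infusion against the same 3 ischemic controls. PLIN2 at 1.68 and 1.20 and PDK4 at 1.10 and 0.68 lie to the right, and ACADS at -0.77 and -0.58 lies to the left.

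Compared directly, the routes differed in 0 of 37 members at the adjusted threshold in edgeR and DESeq2 (0% of all genes called by edgeR, 0.00408% by DESeq2 over 13 libraries), and in 0 at an unadjusted p under 0.05, against 2.4% of all genes. The smallest unadjusted p belonged to ACADVL, which had 2658, 1972, 2025 and 1909 normalized counts after arterial and 10142, 2113, 2537 and 2704 after portal infusion. Its log2 fold change, arterial against portal, was -0.96 (SE 0.46) and -0.21 without portal 1. CRAT, with 4850, 1827, 2099 and 1642 after arterial and 12062, 1522, 1832 and 4312 after portal infusion, was at -0.84 (SE 0.58) and turned to 0.04 without portal 1. HADH, the 3-hydroxyacyl-CoA dehydrogenase, had 1920, 2468, 1746 and 1892 after arterial and 1031, 1673, 1549 and 1699 after portal infusion. It was the only member in which all arterial livers exceeded all portal ones, against 0.91% of all genes in that direction, with a log2 fold change of 0.44 (SE 0.33). The exact permutation test gave p = 0.0286, the smallest it can give with 4 against 4. ACSL3 was at 0.72 (SE 0.58) and at 0.24 without the 4 libraries. For PPARA the difference between the routes was -0.12 (SE 0.51) and for CPT1A -0.05 (SE 0.54), with 95% intervals of -1.20 to 0.96 and -1.19 to 1.09.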

How the data were processed

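RNA of 13 pig liver libraries was measured by bulk sequencing, with poly-T selection and a library preparation that does not keep the strand. Reads were aligned by the authors to the assembly Sscrofa11.1 (HISAT2) and assigned to Ensembl genes (FeatureCounts), and the raw counts were deposited without normalization. Tool versions are not given in the sources used here. The labels name a miRNeasy kit for the RNA and the study's sequencing methods a NucleoSpin kit. Groups and replicate numbers come from the labels, and 0 columns were left without a sample. The study shows each liver at 6 h as a separate pig. For the 2 baseline libraries no source says so, and p-values then measure only the spread between samples, which may be technical. No 2 libraries of a group were copies of each other, the smallest chi-square per gene being 77.1.

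The members and the pathway and marker lists were chosen with earlier results of these data known. The 13 libraries entered 1 fit of edgeR 4.0.16 (R 4.3.3) on counts, after filterByExpr and TMM scaling, and its quasi-likelihood p-values were adjusted by Benjamini-Hochberg over 16481 genes with a threshold of 0.05. The standard error (SE) of a log2 fold change is its size divided by the root of the F statistic. Normalized counts are counts divided by the size factors of DESeq2 1.42.0. Exact permutation tests are two-sided on log2(normalized count + 1), covered 37 members in each of the 6 comparisons, and are not adjusted. No exon lengths were used, so levels are not compared between genes. Counts are reads, not molecules, so the limit of 3 reads behind a count of 0 covers counting error only. Coordinates are those of RefSeq for Sscrofa11.1, matched by symbol for 37 members. Scripts were tested on simulated data.

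Values in every library were given for PPARA, PPARGC1A, RXRA, CPT1A, PDK4, ANGPTL4, FGF21, FABP1, PLIN2, HADHA, ACADM, EHHADH and ACOX2 and for up to 4 further members with the smallest p in a comparison, and of other genes up to 3 of each pathway list with the smallest p in controls against baseline. Alternatives were DESeq2 over all libraries or those compared, edgeR over those compared, voom of limma 3.58.1 with sample weights, RLE and upper quartile normalization, other filters on low counts, 13 mitochondrial genes left out, the replicate number as a block, and each library left out in turn. Leaving out the 4 libraries together was chosen after seeing the data. The labels do not say whether the same numbers in different groups mark pairs, and they were not taken as pairs.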

Additional observations from a re-analysis of the deposited data

Results flagged for a closer look

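In groups of 4 livers, 6 of 74 sets of values had a library far from the other 3 by Dixon's test at its 95% level, which chance alone gives in about 1 of 20 sets. After arterial infusion, SLC25A20 stood at 299.8 normalized counts in arterial 1, with 460 to 494 in the others. ACADM stood at 3629 in the same library, with 8759 to 10260 in the others, and ACADS at 3043 in arterial 3, with 2201 to 2298 in the others. After portal infusion the library was portal 1 in each case. ACADL had 0 there, with 193.8 to 506.2 in the others, EHHADH had 756.4, with 4513 to 5832, and ACADVL had 10140, with 2113 to 2704. Arterial 1 and portal 1 are among the 4 libraries that stood apart over all genes. Groups of 2 and 3 were not tested in this way.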

How the results depend on the processing

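No member passed the adjusted threshold in any of the 6 comparisons under any alternative run, and the lowest adjusted p of a member was 0.0586 in controls against baseline (DESeq2 over the 5 libraries compared) and 0.0566 in all livers at 6 h against baseline (voom). The number of all genes called did depend on the processing, from 0 in edgeR to other values in the order controls and all livers at 6 h against baseline, then infused livers, the arterial and the portal group against controls, then the routes against each other. DESeq2 over 13 libraries gave 5, 14, 1, 0, 4 and 1, DESeq2 over the libraries compared 166 in the first and 3 in portal infusion, voom 111 in the second, no filter on low counts 30, 28, 19, 11, 14 and 5, and the fit without the 4 libraries that stood apart 1 in infused livers and 1 in arterial infusion. The median of all genes in controls against baseline moved to 0.11 under DESeq2 over the libraries compared, where the members stood at -0.38. For the comparison of all livers at 6 h, fits over the libraries compared hold the same 13 libraries and gave no separate value. The filter of 10 counts in every library left 34 members.

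The sign of some members turned. In controls against baseline, HADHA was 0.043 in DESeq2 over the libraries compared and 0.083 with the replicate block, and FABP1 was 0.010 in voom and 0.29 with the block. In all livers at 6 h against baseline, FABP1 was 0.033 in DESeq2, 0.21 in voom, 0.033 with RLE, 0.025 with upper quartile normalization, 0.018 with at least 10 counts and 0.45 with the block, HADHA was -0.16 in voom and -0.25 without the 4 libraries, and ACADM was 0.036 without them. In infused livers against controls, PPARGC1A was 0.20 in voom and 0.19 without the 4 libraries. ACOX2 there was 0.085 in voom, 0.014 with upper quartile normalization, 0.00092 without mitochondrial genes, 0.0092 with at least 10 counts and 0.11 without the 4 libraries. The log2 difference of FGF21 in the permutation test was -0.43 on normalized counts, opposite in sign to the 0.71 of edgeR, and 0.14 on TMM-scaled CPM. In arterial against portal infusion, CRAT was 0.14 in voom and 0.14 without the 4 libraries. The cause was not tested.

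With each library left out in turn, controls against baseline ranged from -0.44 to 1.03 for PDK4, from -0.97 to 1.45 for FABP1 and from -0.38 to 0.17 for HADHA. All livers at 6 h against baseline ranged from -0.78 to 1.64 for FABP1, from -2.11 to 0.13 for PLIN2 and from -0.12 to 0.23 for HADHA. Infused livers against controls ranged from -0.59 to 0.25 for PPARGC1A, from -0.38 to 0.019 for RXRA, from -0.10 to 0.71 for FABP1, from -0.067 to 0.50 for HADHA and from -0.13 to 0.11 for ACOX2, and CRAT between the routes from -1.33 to 0.036. Where a baseline library was left out, the lone other one was assumed to vary like the other groups. Same-numbered libraries of different groups at 6 h had correlations of their deviations between -0.383 and 0.401, over 0.1 in 4 of 10 pairs. Libraries with different numbers lay between -0.496 and 0.398, and baseline was not part of this check, so it cannot decide whether samples were paired. The numbers were not taken as pairs. With the number as a replicate block, the members called remained 0 in all 6 comparisons.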
